A study of Mus musculus with 10 samples.

Results

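Semaphorins, plexins and neuropilins are families of axon guidance genes, and all 31 of them that are considered here were present among the 54146 genes of the count table. The rule names 20 semaphorins, 9 plexins and 2 neuropilins and uses no measured value. Semaphorins are ligands that steer growth cones, cell bodies and vessels. Class 3 members are secreted, classes 4 to 6 span the membrane and class 7 is held by a lipid anchor. Plexins are the receptors that pass the signal into the cell, and neuropilins are co-receptors through which most class 3 ligands reach the A plexins. In the spinal cord these proteins help to pattern the paths of commissural, sensory and motor axons.

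The RNA came from lumbar spinal cord of single mouse embryos at E12.5, and dorsal root ganglia had been left on the tissue. The *Dot1l*-cKO embryos were Wnt1cre2/+; Dot1l fl/fl on a background labelled B6.Cg-E2f1Tg(Wnt1-cre)2Sor/J, so they lacked the histone H3K79 methyltransferase DOT1L only where the Wnt1 promoter had driven Cre, which is mainly the dorsal cord and the neural crest. Litter 1 held 3 *Dot1l*-cKO embryos and 3 controls with 2 floxed alleles and no Cre. Litter 2 held 2 *Dot1l*-cKO embryos and 2 controls with 1 floxed allele and no Cre. Cre was present in all *Dot1l*-cKO embryos and in no control, so an effect of the transgene itself cannot be told apart from that of the deletion.

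Each of the 10 libraries held between 40949585 and 68928443 counted reads. Counts over the whole of *Dot1l* were not lower in *Dot1l*-cKO, at 87.6 to 107 CPM (counts scaled by library size) in litter 1 controls, 97.8 to 110 in litter 1 *Dot1l*-cKO embryos, 89.8 to 91.0 in litter 2 controls and 107 to 112 in litter 2 *Dot1l*-cKO embryos. The genotypes overlapped in litter 1, and in litter 2 both *Dot1l*-cKO embryos lay above both controls, so this value does not check the labels. The 15 markers of spinal cord and lumbar level summed to between 2739 and 3344 CPM, and none was at 0. Markers of dorsal root ganglion neurons were present too, and their sum was higher in litter 1 (1294 to 1690 CPM) than in litter 2 (889 to 1102 CPM). *Xist* reached at most 6.79 CPM in the *Dot1l*-cKO embryos of litter 2, where all 4 Y-linked genes examined were expressed, and at least 499 CPM in the other 8 embryos. Fewer cells of a type and less RNA per cell cannot be told apart in such bulk tissue. The p-values below measure the spread between these embryos.

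All 31 genes passed the expression filter. Per transcript length, receptors led the ranking in the 5 controls. *Plxnb2*, the receptor of SEMA4C, reached 174 ± 10.2 TPM (SD, n = 5), a unit that scales counts by transcript length and library size, and *Plxnb1*, the receptor of SEMA4D, reached 168 ± 10.9 TPM. *Plxna1* followed with 152 ± 17.1 TPM, and *Plxna3* with 120 ± 16.0 TPM. The ranges of these 4 plexins overlapped from each to the next, while those of *Plxnb2* and *Plxnb1* lay above that of *Plxna3*.

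*Nrp2*, the co-receptor for SEMA3F, had 105 ± 10.0 TPM and *Nrp1*, which binds SEMA3A and VEGF, had 70.6 ± 13.9 TPM. The highest semaphorin was the membrane ligand *Sema4c*, with 94.0 ± 4.66 TPM, followed by *Sema6c* with 82.2 ± 3.72 TPM. Class 3 ligands lay mostly at the low end: *Sema3c* had 52.6 ± 3.03 TPM and *Sema3f* 25.4 ± 2.77 TPM, but *Sema3d*, *Sema3b* and *Sema3e* had 7.55 ± 1.75, 7.38 ± 2.49 and 3.72 ± 0.227 TPM. *Plxnb3*, a receptor of SEMA5A, was the lowest of all at 1.5 ± 0.79 TPM. Of the 30 pairs of neighbours in this order, 26 had overlapping ranges. The exceptions were *Sema3f* above *Sema4a*, *Sema5a* above *Sema3d*, *Sema3b* above *Sema3e* and *Sema3e* above *Plxnb3*. The median of the 31 genes was 43.2 TPM, beside 13.4 TPM for all genes tested, and 27 genes reached 10 TPM.

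**Figure D1:**
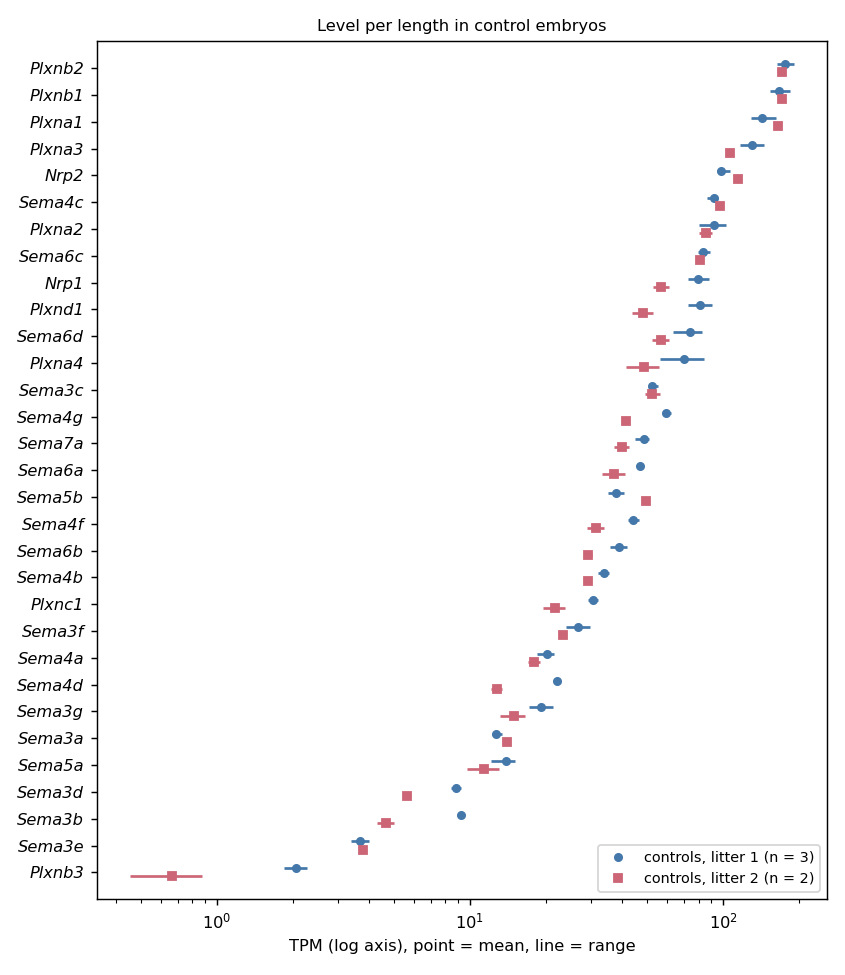
Level per transcript length (TPM, log axis) of each gene in the control embryos of litter 1 (blue circles, n = 3) and litter 2 (red squares, n = 2), with points at the mean and lines over the range, ordered by the mean of the 5 controls. *Plxnb2* lies at the top with 174 TPM and *Plxnb3* at the bottom with 1.5 TPM.

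Summed by class, the 11 receptors had 972 to 1186 TPM in litter 1 controls and 990 to 1036 TPM in litter 1 *Dot1l*-cKO embryos. The 20 semaphorins had 730 to 780 TPM and 734 to 793 TPM in the same embryos. The ratio of receptor to ligand TPM was 1.33 to 1.52 in litter 1 controls and 1.29 to 1.38 in litter 1 *Dot1l*-cKO embryos, and these ranges overlapped. In litter 2 it was 1.51 in both controls, 1.46 in *Dot1l*-cKO embryo 4 and 1.42 in embryo 6. No test was run on this ratio. The ligand sum was composed mainly of class 4 (264 to 280 TPM in litter 1 controls) and class 6 (232 to 258 TPM), with 127 to 141 TPM from class 3.

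Over both litters, 2 of the 31 genes rose in *Dot1l*-cKO and none fell, by edgeR's quasi-likelihood test with litter in the model and an adjusted p of 0.05 as threshold. They were the secreted ligand *Sema3b* and the receptor *Plxnb3*. Among all 19773 genes tested, 1.9% were called higher and 1.09% lower. At an unadjusted p of 0.05, 8 of the 31 were higher and 0 lower, and 11.1% of all genes were higher and 10.6% lower. DESeq2 called 4 higher and 0 lower, against 4.69% of 18161 genes called higher and 3.53% lower, while limma-voom called 0 in either direction (1.25% of all genes called higher and 0.9% lower), with 9 at an unadjusted p of 0.05 (21.6% of all genes). Beside these values, edgeR called 2 of 16 dorsal root ganglion neuron markers higher and 1 lower by genotype, and 1 of 9 neural crest glia and 1 of 9 erythroid markers higher. It called lower 2 of 10 cycling progenitor, 2 of 15 spinal cord and lumbar and 1 of 10 postmitotic neuron markers, and the part of these cells in the differences was not tested.

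*Plxnb3* had 3.12, 2.89 and 3.49 CPM in the 3 controls of litter 1 and 5.48, 4.83 and 3.92 CPM in the 3 *Dot1l*-cKO embryos. In litter 2 the controls had 0.717 and 1.42 CPM and the *Dot1l*-cKO embryos 2.98 and 1.90 CPM. Every *Dot1l*-cKO embryo lay above every control of its own litter, although the 2 genotypes overlapped across litters. It rose by 0.79 ± 0.19 (SE) on the log2 scale (adjusted p = 0.0451, edgeR). These values rest on 36 to 329 reads per embryo, the fewest of any of the 31 genes per length. With embryos left out in turn, the call held in 1 of 10 fits, that without litter 1 *Dot1l*-cKO embryo 7 (log2 fold changes 0.63 to 0.90).

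*Plxnb3* is X-linked, and in litter 2 genotype and Y-linked expression cannot be told apart. In litter 1, where no embryo had more than 0.285 CPM of any of the 4 Y-linked genes examined, the log2 fold change was 0.58 ± 0.22 (adjusted p = 0.230, edgeR). The other X-linked member, *Plxna3*, lies 556551 bp away and had a log2 fold change over both litters of -0.07 ± 0.05 (adjusted p = 0.502, edgeR).

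*Plxnb3* had the largest difference by genotype, so its promoter window is shown beside that of *Sema6b*, a membrane ligand described below. Each window of RefSeq (GRCm38.p6) runs from 250 bases before a transcript start to 50 after it. The *Plxnb3* window lies at chrX:73756853-73757152 on the plus strand and the *Sema6b* window at chr17:56140294-56140593 on the minus strand, and both are written 5′ to 3′ on that strand. Capitals mark the E-box CAGCTG and the GC box GGGCGG, searched on both strands.
Plxnb3: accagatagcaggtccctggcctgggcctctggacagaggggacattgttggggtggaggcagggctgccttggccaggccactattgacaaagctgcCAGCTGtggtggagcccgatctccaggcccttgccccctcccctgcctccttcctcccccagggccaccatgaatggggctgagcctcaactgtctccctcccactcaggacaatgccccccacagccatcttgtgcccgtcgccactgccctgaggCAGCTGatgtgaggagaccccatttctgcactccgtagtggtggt
Sema6b: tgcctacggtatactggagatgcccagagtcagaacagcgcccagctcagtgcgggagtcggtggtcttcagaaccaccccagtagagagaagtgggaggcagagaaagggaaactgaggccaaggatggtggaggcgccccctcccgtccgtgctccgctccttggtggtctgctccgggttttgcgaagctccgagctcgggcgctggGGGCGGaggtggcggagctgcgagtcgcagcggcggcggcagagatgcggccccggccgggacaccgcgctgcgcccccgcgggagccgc
The *Plxnb3* window held 4 CpG dinucleotides, 2 E-boxes and no GC box at 63.7% GC. The *Sema6b* window held 29 CpG dinucleotides, no E-box and 1 GC box at 69% GC. Windows within 1000 bp of the annotated gene start were used for 23 of the 31 genes. Their median was 23 CpG dinucleotides, against 7 in all 32851 windows, and their range was 4 to 42. Of all windows, 38.0% held no more CpG dinucleotides than that of *Plxnb3*. The 2 windows with 4 were those of *Plxnb3* and *Sema4a*. A GC box was found in 19 of the 23 windows and in 35.7% of all windows, CAGCTG in 4 of the 23 and in 16.3% of all, and TATAAA in 0 of the 23 and in 13.6% of all. No window was used for *Sema3b*, *Sema3f*, *Sema6a*, *Plxna1* and *Plxna4*, and those for *Sema3a*, *Sema4d* and *Plxna2* lay farther from the gene start.

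*Sema3b*, a secreted ligand that acts through neuropilins, had 10.4, 10.4 and 10.5 CPM in litter 1 controls and 13.5, 14.5 and 11.8 CPM in litter 1 *Dot1l*-cKO embryos. In litter 2 the controls had 5.83 and 5.14 CPM and the *Dot1l*-cKO embryos 6.48 and 9.14 CPM. The genotypes did not overlap within either litter, and all values of litter 2 lay below all values of litter 1. *Sema3b* rose by 0.41 ± 0.10 on the log2 scale (adjusted p = 0.0456, edgeR). With embryos left out in turn, the call held in 2 of 10 fits, those without litter 1 *Dot1l*-cKO embryo 7 and without litter 2 *Dot1l*-cKO embryo 4 (log2 fold changes 0.32 to 0.47).

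*Sema3f*, the repellent ligand of NRP2, lies 72270 bp from *Sema3b* on chromosome 9. Its levels were 29.5, 33.1 and 36.4 CPM in litter 1 controls, 38.9, 47.2 and 32.2 CPM in litter 1 *Dot1l*-cKO embryos, 29 and 31 CPM in litter 2 controls, and 38.7 and 38.8 CPM in litter 2 *Dot1l*-cKO embryos. The genotypes were separate in litter 2 and overlapped in litter 1 through *Dot1l*-cKO embryo 7. The log2 fold change of 0.30 ± 0.09 missed the threshold by edgeR (adjusted p = 0.0755) and passed it by DESeq2 (adjusted p = 0.0241). Of the 3 coding genes between *Sema3b* and *Sema3f*, *Slc38a3* had 0.07 (adjusted p = 0.636), *Gnai2* -0.06 (adjusted p = 0.480) and *Gnat1* 0.40 (adjusted p = 0.476) by edgeR, so none of them passed.

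*Sema6b*, a membrane ligand of A plexins, had 33.5, 40.1 and 35.9 CPM in litter 1 controls and 46.6, 44.7 and 37.1 CPM in litter 1 *Dot1l*-cKO embryos. In litter 2 it had 27.1 and 30.2 CPM in controls and 33.5 and 39.0 CPM in *Dot1l*-cKO embryos. The genotypes overlapped in litter 1 and not in litter 2. The log2 fold change of 0.27 ± 0.08 missed the threshold by edgeR (adjusted p = 0.0620) and passed it by DESeq2 (adjusted p = 0.0184). Both *Sema3f* and *Sema6b* passed by edgeR when litter 1 *Dot1l*-cKO embryo 7 was left out.

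**Figure D2:**
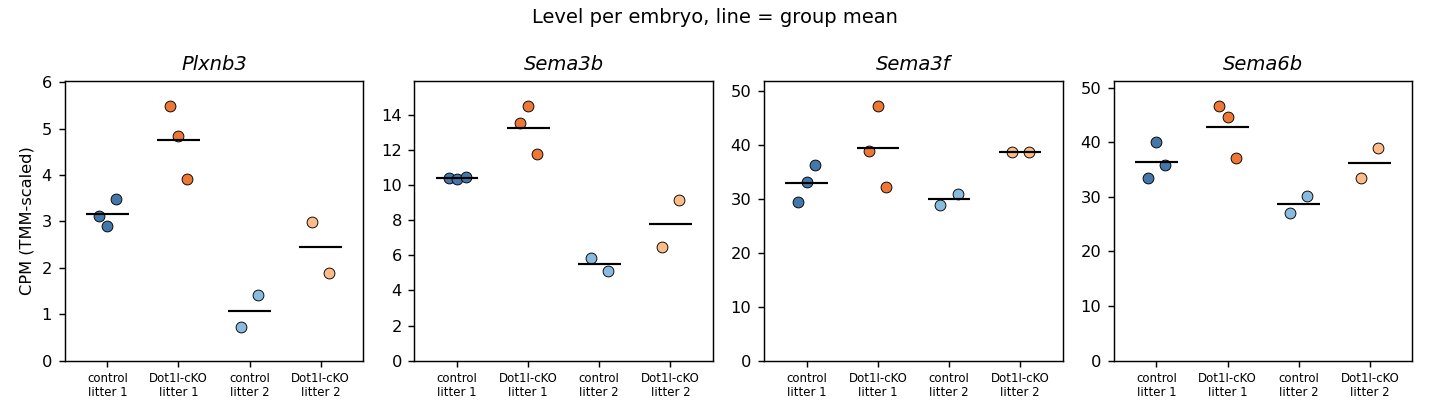
Levels in each embryo (TMM-scaled CPM, axes from 0) of *Plxnb3*, *Sema3b*, *Sema3f* and *Sema6b* by litter and genotype, with 1 point per embryo and lines at group means. For *Plxnb3* and *Sema3b* each *Dot1l*-cKO embryo lies above both or all controls of its litter; for *Sema3f* and *Sema6b* 1 embryo of litter 1 *Dot1l*-cKO lies among its controls.

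Of the 6 genes with the next lowest p, *Sema4g*, a membrane ligand, had 119, 122 and 127 CPM in litter 1 controls, 140, 129 and 138 CPM in litter 1 *Dot1l*-cKO embryos, 88.8 and 88.3 CPM in litter 2 controls, and 91.4 and 93.8 CPM in litter 2 *Dot1l*-cKO embryos. Its genotypes did not overlap in either litter, but the log2 fold change of 0.12 ± 0.04 did not pass (adjusted p = 0.127, edgeR). *Sema4a*, which like *Sema4g* is a class 4 gene, had 23.5, 28.0 and 26.5 CPM in the controls of litter 1 and 31.4, 28.9 and 30.7 CPM in its *Dot1l*-cKO embryos. In litter 2 the controls had 24.9 and 22.8 CPM and the *Dot1l*-cKO embryos 24.9 and 25.6 CPM. The genotypes were separate in litter 1 and overlapped in litter 2, with a log2 fold change of 0.17 ± 0.06 (adjusted p = 0.144, edgeR).

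*Sema7a*, the lipid-anchored class 7 ligand, had 39.9, 39.6 and 34.7 CPM in controls and 45.1, 40.1 and 38.8 CPM in *Dot1l*-cKO embryos of litter 1, with 34.1 and 30.7 CPM in litter 2 controls and 36.6 and 37.4 CPM in litter 2 *Dot1l*-cKO embryos. *Plxnc1*, its plexin receptor, had 63.3, 59.1 and 59.4 CPM in litter 1 controls and 78.3, 64.3 and 68.4 CPM in litter 1 *Dot1l*-cKO embryos, with 48.2 and 40.5 CPM in litter 2 controls and 46.8 and 45.5 CPM in litter 2 *Dot1l*-cKO embryos. The ligand was separate by genotype only in litter 2 and the receptor only in litter 1. Their log2 fold changes were 0.15 ± 0.06 and 0.15 ± 0.06, with adjusted p of 0.175 and 0.194 by edgeR.

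*Sema3a*, the main ligand of NRP1, had 44.1, 41.5 and 39.7 CPM in litter 1 controls and 52.9, 48.0 and 48.9 CPM in litter 1 *Dot1l*-cKO embryos, with 47.8 and 47.7 CPM in litter 2 controls and 44.1 and 48.5 CPM in litter 2 *Dot1l*-cKO embryos. Its log2 fold change over both litters was 0.14 ± 0.06 (adjusted p = 0.234, edgeR). *Plxnb1* had 370, 356 and 414 CPM in litter 1 controls and 319, 343 and 367 CPM in litter 1 *Dot1l*-cKO embryos, with 396 and 409 CPM in litter 2 controls and 390 and 395 CPM in litter 2 *Dot1l*-cKO embryos. It was the only one of these 6 with a negative value, -0.10 ± 0.05 (adjusted p = 0.283, edgeR). The genotypes overlapped in litter 2 for *Sema3a* and in litter 1 for *Plxnb1*.

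The other 21 genes had log2 fold changes between -0.18 (*Sema3g*) and 0.12 (*Sema3d*), and their adjusted p lay between 0.296 and 0.957. Ligands with positive values were *Sema3c*, *Sema3d*, *Sema4b*, *Sema4c*, *Sema4f*, *Sema5b*, *Sema6a* and *Sema6c*, and those with negative values were *Sema3e*, *Sema3g*, *Sema4d*, *Sema5a* and *Sema6d*. Among receptors, *Plxna1* and *Plxna2* had positive values, and *Plxna3*, *Plxna4*, *Plxnb2*, *Plxnd1*, *Nrp1* and *Nrp2* negative ones. The difference was positive for 15 of 20 semaphorins (median log2 fold change 0.080) and for 4 of 11 receptors (median -0.034). The median of the 31 genes was 0.037 and that of all genes tested was -0.0077. No test compared ligands with receptors.

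**Figure D3:**
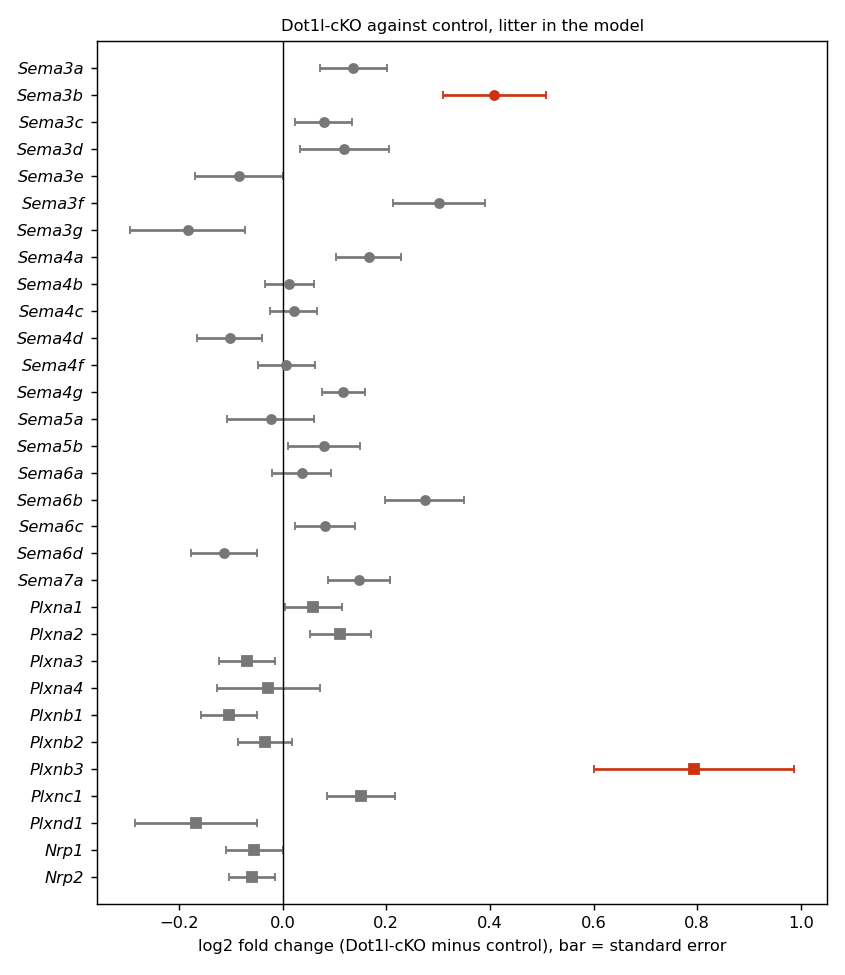
Log2 fold change between *Dot1l*-cKO and control with litter in the model (x axis) for each gene, with bars of 1 standard error, circles for semaphorins, squares for plexins and neuropilins, and red for an adjusted p below 0.05. *Sema3b* (0.41) and *Plxnb3* (0.79) are the 2 red points.

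Counted without a test, 3 of the 31 genes were higher in every *Dot1l*-cKO embryo than in every control of the same litter, in both litters, and 0 were lower in that way. The 3 were *Sema3b*, *Sema4g* and *Plxnb3*. Over all genes tested, 3.8% were higher and 4.15% lower by the same count. With litters pooled, no gene of the 31 separated the 5 *Dot1l*-cKO embryos from the 5 controls, in either direction, and 1.93% of all genes did so.

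Within litter 1, as a contrast in the model of the 4 groups, edgeR called 0 of the 31 genes (0.612% of all genes), with 13 at an unadjusted p of 0.05 (15.4% of all genes). DESeq2 called 3, namely *Sema3a*, *Sema4d* and *Plxnd1* (3.92% of all genes by DESeq2), and limma-voom called 0. Within litter 2, edgeR called 0 (0.202% of all genes) with 5 at an unadjusted p of 0.05 (17.1% of all genes), DESeq2 called 1, *Plxnb3* (3.18% of all genes by DESeq2), and limma-voom called 0. For *Plxnb3* the log2 fold change in litter 2 was 1.22 ± 0.31 (adjusted p = 0.124, edgeR), and for *Sema3b* it was 0.51 ± 0.16 (adjusted p = 0.162, edgeR). The summed dorsal root ganglion neuron markers were 889 to 918 CPM in the controls and 997 to 1102 CPM in the *Dot1l*-cKO embryos of litter 2, and overlapped between genotypes in litter 1. In litter 2 the sums of erythroid (1350 to 1477 and 1666 to 2077 CPM), mesenchyme (1326 to 1486 and 1600 to 1789 CPM) and microglia markers (67.4 to 81.1 and 84.7 to 95.3 CPM) were also higher in *Dot1l*-cKO, given after the controls. The sums of spinal cord and lumbar markers (2967 to 2980 and 2980 to 3344 CPM) were barely separate. Of those 15 markers, 6 had a positive and 9 a negative log2 fold change within litter 2 (median -0.029). The sum of cycling progenitor markers was lower (4467 to 4634 and 4250 to 4334 CPM). The part of these lists in the values of litter 2 was not tested. The difference of the genotype effect between litters passed for 0 of the 31 genes by edgeR (0.0101% of all genes) and by limma-voom, with 4 at an unadjusted p of 0.05 by edgeR (8.19% of all genes), and for 1, *Plxnd1*, by DESeq2 (0.542% of all genes by DESeq2). In litter 2 genotype went with Y-linked expression, and the controls of the litters differed in floxed alleles. A genotype effect within litter 2, or its difference between litters, cannot be told apart from these. When litter 1 *Dot1l*-cKO embryo 3 was left out, edgeR called *Sema3g* and *Plxnd1* lower within litter 1, and *Plxnd1* also passed for the difference between litters. The share of all genes called in that fit was not counted.

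*Plxnd1*, the receptor of SEMA3E and a gene best known from endothelium, was singled out after its values were seen. It had 138, 128 and 155 CPM in litter 1 controls and 104, 115 and 91.0 CPM in litter 1 *Dot1l*-cKO embryos. In litter 2 it had 93.7 and 79.6 CPM in controls and 110 and 96.9 CPM in *Dot1l*-cKO embryos. The *Dot1l*-cKO embryos lay below all controls in litter 1 and above both controls in litter 2, and 1.98% of all genes were separate in opposite directions in the litters. The log2 fold change was -0.44 ± 0.10 in litter 1 (adjusted p = 0.0625, edgeR) and 0.25 in litter 2, and the difference of 0.70 ± 0.15 had an adjusted p of 0.270 by edgeR and 0.00659 by DESeq2. All 9 endothelial markers were detected, and their sum was 355 to 404 CPM in litter 1 controls, 286 to 311 CPM in litter 1 *Dot1l*-cKO embryos, 234 to 289 CPM in litter 2 controls and 253 to 311 CPM in litter 2 *Dot1l*-cKO embryos. All 9 had a negative log2 fold change within litter 1 (median -0.40), none passed there by edgeR (7 at an unadjusted p of 0.05), and 6 of 9 had a positive one within litter 2. For the difference between litters all 9 were positive, as *Plxnd1* was (median 0.45), with 8 at an unadjusted p of 0.05 and none called by edgeR. Other lists had the same sign for that difference, with 10 of 11 mesenchyme markers (median 0.49), 9 of 9 erythroid markers (median 0.51), 12 of 16 dorsal root ganglion neuron markers (median 0.55), 7 of 9 neural crest glia markers (median 0.40) and 8 of 10 microglia markers (median 0.22) positive and none called. Signs were mixed for spinal cord and lumbar markers (6 of 15 positive, median -0.090) and motor neuron markers (4 of 9, median -0.11). Of cycling progenitor and of postmitotic neuron markers, 5 of 10 each were positive, beside 9581 of all 19773 genes tested. All 11 mesenchyme markers were negative within litter 1 (median -0.31), as the endothelial ones were. The part of these markers in the *Plxnd1* values was not tested. The ligand gene *Sema3e* had a log2 fold change over both litters of -0.08 ± 0.09 (adjusted p = 0.605, edgeR).

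*Sema4d*, the ligand of PLXNB1, had 41.3, 40.3 and 39.4 CPM in litter 1 controls and 36.2, 33.6 and 34.1 CPM in litter 1 *Dot1l*-cKO embryos. In litter 2 the controls had 25.0 and 23.3 CPM, and the *Dot1l*-cKO embryos had 25.5 and 25.6 CPM. As with *Plxnd1*, the *Dot1l*-cKO embryos were below the controls in litter 1 and above them in litter 2. The difference between litters was 0.30 ± 0.10 on the log2 scale (adjusted p = 0.475, edgeR). For *Sema3a* the corresponding difference was -0.30 ± 0.10 (adjusted p = 0.492, edgeR), with 0.26 ± 0.07 in litter 1 (adjusted p = 0.0949, edgeR).

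**Figure D4:**
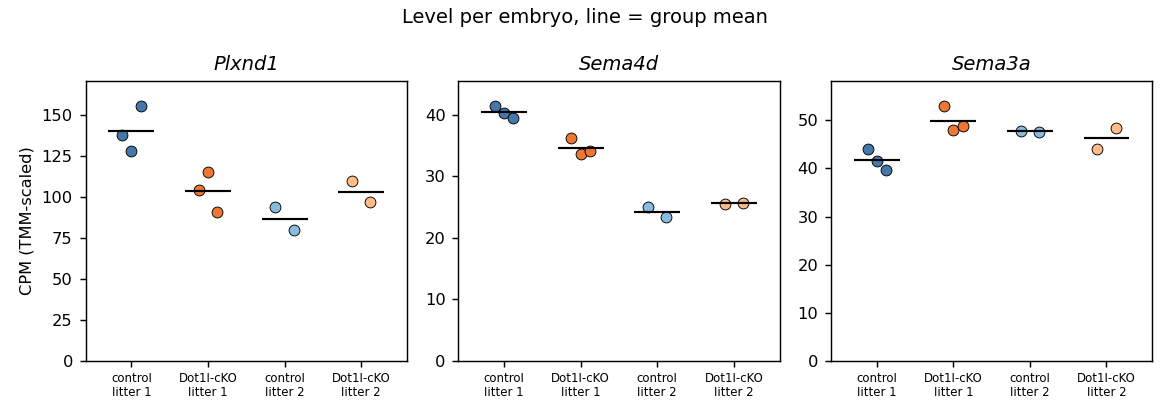
Levels in each embryo (TMM-scaled CPM, axes from 0) of *Plxnd1*, *Sema4d* and *Sema3a* by litter and genotype, with 1 point per embryo and lines at group means. *Plxnd1* and *Sema4d* lie lower in *Dot1l*-cKO in litter 1 and higher in litter 2; *Sema3a* lies higher in *Dot1l*-cKO in litter 1 and overlaps in litter 2.

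Litter accounted for more calls than genotype. Only 2 litters were sampled, so these calls describe this pair of litters and anything else that differed between them. With genotype in the model, 20 of the 31 genes differed between litters by edgeR, 4 being higher and 16 lower in litter 2. Over all genes, 16.9% were higher and 17.8% lower in litter 2. The median difference of the 31 genes was -0.19 on the log2 scale, beside -0.016 for all genes tested. Without litter 2 control embryo 7, 10 rather than 16 were called lower. Controls alone gave 3 higher and 13 lower (11.9% and 12.3% of all genes), but controls of the litters also differed in their number of floxed alleles, and this cannot be told apart from litter.

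The 16 genes that were lower in litter 2 included receptors and ligands of several classes. *Plxnb3* differed by -1.23 ± 0.20 (adjusted p = 0.000363, edgeR), and *Sema3b* by -0.84 ± 0.10 (adjusted p = 3.38e-05, edgeR). *Sema4d* followed with -0.59 ± 0.06 (adjusted p = 1.30e-05, edgeR), *Plxnc1* with -0.53 ± 0.07 (adjusted p = 4.16e-05, edgeR) and *Sema4g* with -0.51 ± 0.04 (adjusted p = 1.78e-06, edgeR). Of these 5, *Plxnb3* alone overlapped between the litters, since litter 2 *Dot1l*-cKO embryo 4 (2.98 CPM) lay above litter 1 control embryo 5 (2.89 CPM). The other 11 were *Sema3d*, *Sema4a*, *Sema4f*, *Sema6a*, *Sema6b*, *Sema6d*, *Sema7a*, *Plxna3*, *Plxna4*, *Plxnd1* and *Nrp1*, with differences from -0.42 to -0.19.

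*Sema5b*, a class 5 membrane ligand, had the largest positive difference between litters. It had 58.7, 64.1 and 67.4 CPM in litter 1 controls, 57.8, 77.2 and 61.2 CPM in litter 1 *Dot1l*-cKO embryos, 85.5 and 87.2 CPM in litter 2 controls and 93.1 and 96.2 CPM in litter 2 *Dot1l*-cKO embryos. All 4 embryos of litter 2 lay above all 6 of litter 1, with a difference of 0.49 ± 0.07 (adjusted p = 0.000126, edgeR). *Plxna1* (0.30), *Nrp2* (0.23) and *Sema4c* (0.14) were also higher in litter 2. The 2 neuropilins went opposite ways, since *Nrp1* was lower by -0.41 ± 0.06 (adjusted p = 8.17e-05, edgeR) and *Nrp2* higher by 0.23 ± 0.04 (adjusted p = 0.00122, edgeR). Of *Plxna1* exon bases, 10.7% are shared with a gene on the other strand, and of *Sema4c* 7.27%. The library kit does not mark strand, so reads of these stretches cannot be assigned to either gene.

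The litters did not overlap at all for 10 genes that were lower and 4 that were higher in litter 2, where 11.6% and 11.9% of all genes did so. The lower ones were *Sema3b*, *Sema3d*, *Sema4d*, *Sema4f*, *Sema4g*, *Sema6a*, *Sema6d*, *Plxna3*, *Plxnc1* and *Nrp1*. Markers of other cells moved with litter as well. Of 16 dorsal root ganglion neuron markers, all had negative differences and 11 were called lower in litter 2 by edgeR (median -0.70). Of 10 cycling progenitor markers 9 were called higher, with sums of 2689 to 3344 CPM in litter 1 and 4250 to 4634 CPM in litter 2. All 9 endothelial markers had negative differences (median -0.33), and 5 were called lower. Of 10 postmitotic neuron markers 6 were called lower, as were 4 of 9 neural crest glia markers, while 9 of 15 spinal cord and lumbar markers were called higher. Of 9 erythroid markers 5 were called higher and 1 lower (median 0.45), and of 9 motor neuron markers 4 were called higher and 2 lower. Over all genes, 16.9% were called higher and 17.8% lower. None of these lists had a marker at 0 in any embryo, and their part in the litter differences of the guidance genes was not tested.

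**Figure D5:**
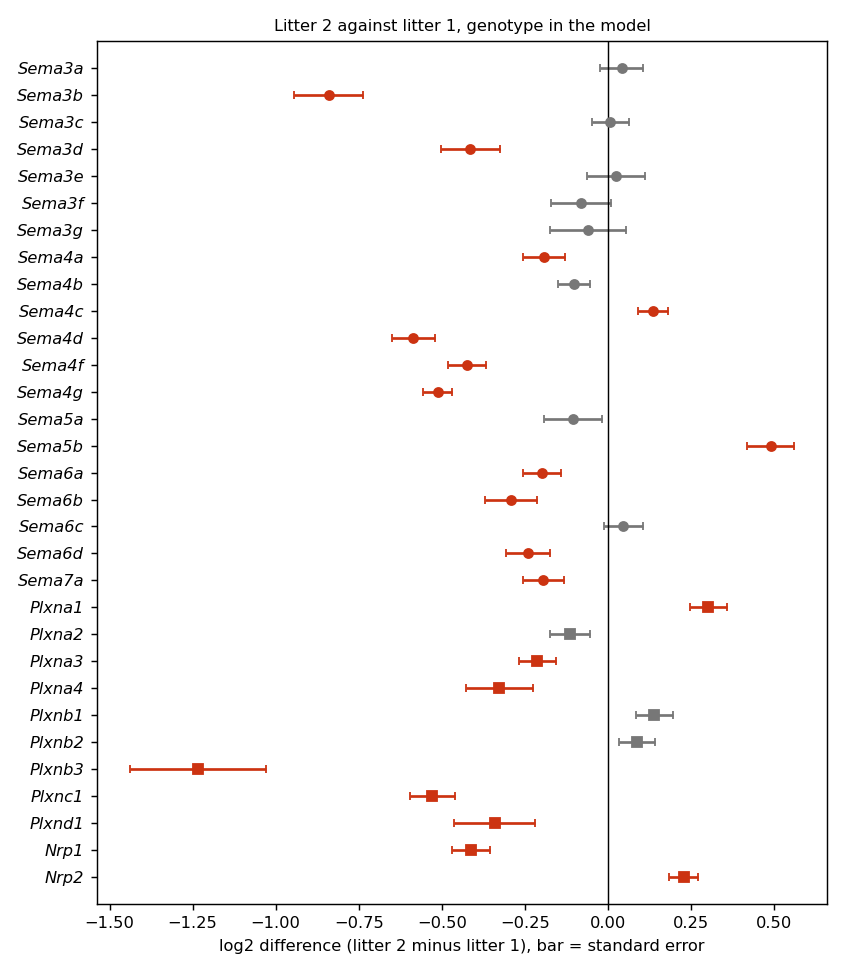
Log2 difference between litter 2 and litter 1 with genotype in the model (x axis) for each gene, with bars of 1 standard error, circles for semaphorins, squares for plexins and neuropilins, and red for an adjusted p below 0.05. *Plxnb3* (-1.23) lies farthest to the left and *Sema5b* (0.49) farthest to the right.

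The genes that carry semaphorin signals inside the cell or share its receptors were considered as a list of 42, among them the collapsin response mediators (*Dpysl2* to *Dpysl5* and *Crmp1*), MICAL oxidoreductases, Rnd GTPases and the VEGF receptors. By edgeR, 0 of the 42 differed by genotype, with 11 at an unadjusted p of 0.05 (21.7% of all genes), whereas limma-voom called 0 and DESeq2 called 3 higher and 2 lower (4.69% and 3.53% of all genes). Between litters, 7 of these 42 were higher and 9 lower by edgeR, where 16.9% of all genes were higher and 17.8% lower.

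A second list held 42 ephrins, Eph receptors, netrins, Slits, Robos and other guidance genes. Of these, 2 rose in *Dot1l*-cKO and 0 fell by edgeR, where 1.9% of all genes were called higher and 1.09% lower. They were the ligand *Efna3* (0.23 ± 0.05, adjusted p = 0.0354) and the receptor *Ephb6* (0.21 ± 0.05, adjusted p = 0.0402). On the same list limma-voom called 2 higher and 0 lower, and DESeq2 called 6 higher and 1 lower (4.69% and 3.53% of all genes). At an unadjusted p of 0.05, 9 were higher and 6 lower by edgeR, beside 11.1% and 10.6% of all genes. The median log2 fold change of that list was 0.012.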

How the data were processed

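The authors deposited raw read counts per gene for 10 embryos. According to the methods, reads were trimmed, aligned to mm10 with STAR and counted with featureCounts through snakePipes. The NEBNext Ultra kit used for the libraries does not mark strand. Of 54146 identifiers, 54079 matched the annotation of GRCm38. Genes were tested with edgeR 4.0.16 in R 4.3.3 (TMM scaling, default filter, quasi-likelihood F test, Benjamini-Hochberg over 19773 genes). Genotype and litter came from 1 additive model, and contrasts within litters from a model of the 4 groups. DESeq2 1.42.0, limma 3.58.1 (voom), other scalings and filters, and leaving out each embryo were alternatives. TPM used the summed length of merged exons. Counts differed beyond sampling noise in all 8 pairs of embryos within groups (chi-square of 8.68 to 24.4 per gene), so each embryo was 1 replicate. In counts simulated for the genotype comparison over 19773 genes, 200 were given a log2 change of 0.8, of which 75.5% were recovered, and 3.82% of calls were false. The simulated spread was that shared by genes of similar level, without a spread of each gene's own. Apart from *Plxnb3*, the genes above changed by at most 0.41 with genotype over both litters, so this recovery does not describe them. The members and lists were chosen with earlier results of these data known. All 31 genes are named. Values per embryo are given for genes with an adjusted p below 0.05, the 4 genes named for these data by the study, the 6 genes next lowest in p for genotype, and the 6 with the largest called differences between litters.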

Additional observations from a re-analysis of the deposited data

Results flagged for a closer look

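*Plxnd1* and *Sema4d* drew attention because the *Dot1l*-cKO embryos lay on opposite sides of the controls in the litters, below every control in litter 1 (3 against 3 embryos) and above every control in litter 2 (2 against 2 embryos). Over all genes tested, 1.98% were separate in opposite directions in the litters, beside these 2 of 31. The difference of the genotype effect between litters was 0.70 on the log2 scale for *Plxnd1* (adjusted p = 0.270, edgeR) and 0.30 for *Sema4d* (adjusted p = 0.475, edgeR), so neither passed by that test. By DESeq2 *Plxnd1* passed (adjusted p = 0.00659) and *Sema4d* did not (adjusted p = 0.35). *Plxnd1* also passed by edgeR without the expression filter and with litter 1 *Dot1l*-cKO embryo 3 left out. Such a difference between litters cannot be told apart from Y-linked expression in litter 2 or the floxed alleles of its controls.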

How the results depend on the processing

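The number of the 31 genes called higher in *Dot1l*-cKO was 2, and it became 4 without the expression filter or with DESeq2 and 0 with limma-voom or without litter in the model. It ranged from 0 to 4 when each embryo was left out. Within litter 1 the 0 calls became 5 without the filter and 3 with DESeq2, and 0 to 2 with an embryo left out. Within litter 2 they became 5 without the filter, 1 with DESeq2 and 1 in a fit of litter 2 alone. For the difference between litters, 1 gene passed without the filter and 1 with DESeq2, and 0 to 1 with an embryo left out. The 16 genes called lower in litter 2 became 10 to 15 and the 4 called higher 3 to 5 with an embryo left out. Apart from DESeq2 and limma-voom, the share of all genes called was not counted for these alternatives, so their counts lack that comparison. The cause of these changes was not tested. Alternatives were run for the log2 fold changes of 10 genes by genotype and 6 genes by litter, and none of these changed direction. Calls near the threshold changed when single embryos were left out, and *Plxnb3* rested on as few as 36 reads. No paired analysis was possible because the embryo numbers of a litter are not shared between its genotypes.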
